A study of Mus musculus with 12 samples.

Results

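The axon guidance ligands and receptors described here are the semaphorins of classes 3 to 7, the plexins and neuropilins, the ephrins and Eph receptors, the netrins with Dcc and the Unc5 receptors, and the Slits with the Robo receptors. They were chosen by gene symbol from the deposited count table, and 70 of its 24033 named genes matched. One match, Plxna4os1, is a noncoding RNA antisense to Plxna4 that shares the plexin's symbol. After the filter on low counts 67 remained for testing, 35 ligands and 32 receptors. Epha1, Robo3 and Plxna4os1 did not pass it, with 0 to 10 reads in each library.

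All animals were Adv-Cre//Ribotag mice. In these animals Cre recombinase expressed from the Advillin locus in sensory neurons switches on a hemagglutinin (HA) tag on Rpl22, a protein of the large ribosomal subunit, so that HA immunoprecipitation (IP) pulls down neuronal ribosomes and the RNA bound to them. RNA came from dissociated L4-L6 dorsal root ganglia (DRG), either 3 days after a crush of 1 sciatic nerve (injured) or from uncrushed ganglia (naive), and was sequenced from the IP and from the input taken before it. The 4 groups, naive IP, injured IP, naive input and injured input, held 3 libraries each. Sex, age and strain background are not given in the sources used here. Per the design text each animal gave an injured and a naive sample, which leaves it possible that the naive side was contralateral to a crush.

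In development, guidance ligands on or around target cells steer the growth cone through receptors on the axon, and most of these ligands can repel as well as attract. Class 3 semaphorins are secreted and act mainly through neuropilin and plexin A complexes, whereas the other semaphorins in the list are held at the cell membrane and bind plexins directly. Ephrins and Eph receptors signal at cell contacts in both directions, netrins attract through Dcc and repel through Unc5 receptors, and Slits act through Robo receptors. Adult sensory neurons of the DRG regrow their peripheral axon after a nerve crush.

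Gene counts summed to 33574292 to 36409731 per naive IP library, 41157574 to 42073883 per injured IP library, 29497771 to 33086433 in naive input and 29534269 to 31484191 in injured input. Levels are CPM, which scale counts to the library's total and composition factor. Adjusted p-values come from edgeR's quasi-likelihood test with Benjamini-Hochberg adjustment over all 15748 genes tested, with 0.05 as the threshold for a call, and changes are log2 values with their standard error (SE). As a check of the labels, Atf3, a transcription factor induced by axon injury, stood at 19.2 ± 14.7 CPM (SD, n = 3) in naive IP and 597 ± 16.6 in injured IP. The summed 15 sensory neuron markers stood at 24149 to 25026 CPM in naive IP against 20813 to 21283 in naive input. No cell type marker was at 0 in any library. The naive libraries numbered 2 stood apart with Atf3 at 36.1 CPM in IP and 29.1 in input, and without them 19 rather than 24 guidance genes were called after injury in IP and 13 rather than 16 in input. Whether replicate libraries stand for separate animals is not stated, so p-values measure the spread between these libraries.

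In neuronal ribosome RNA, crush changed 24 of the 67 guidance genes, 13 upward and 11 downward. Over all genes tested, 18.7% were called in this comparison, 11.5% higher and 7.12% lower. The median log2 change was -0.07 over the guidance genes and 0.02 over all genes. In input, 16 were called, 7 higher and 9 lower, where the share over all genes was 16%, with 7.79% higher and 8.26% lower. Semaphorins and plexins gave 16 of the 24 calls in IP. By family, 7 of 13 membrane-bound semaphorins, 4 of 7 class 3 semaphorins and 5 of 9 plexins were called, and 2 of 3 Slits, 1 of 3 Robo receptors, 1 of 5 netrin receptors, 3 of 13 Eph receptors, 1 of 8 ephrins, 0 of 4 netrins (1 at an unadjusted p under 0.05) and 0 of 2 neuropilins (0 at an unadjusted p under 0.05). Library numbers were taken, from these same data and not from the labels, to pair injured with naive libraries within a fraction. A fit with that block called 41 guidance genes in IP, 22 higher and 19 lower, where it called 41.8% of all genes. In input the blocked fit called 34, 15 higher and 19 lower, against 39.6% of all genes. All 24 and all 16 calls of the unblocked fit were among these. Without the injured IP library numbered 3, 14 were called in IP, 8 higher and 6 lower.

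Sema6a, a transmembrane semaphorin known as a ligand of the plexins Plxna2 and Plxna4, changed most of all members. The gene lies on the minus strand at chr18:47245254-47371200 (GRCm38). Its level was 24.2, 29.0 and 21.4 CPM in the naive IP libraries and 257, 276 and 272 CPM in the injured ones. In input it was 22.7, 30.6 and 24.2 CPM in naive and 149, 204 and 193 CPM in injured libraries. The injured libraries lay far above the naive ones in both fractions, with no overlap, and the naive ranges of the fractions overlapped. The rise was 10.8-fold in IP (log2 3.43, SE 0.15, adjusted p = 2.55e-08) and 7.02-fold in input (log2 2.81, SE 0.15, adjusted p = 2.84e-07). Without the naive libraries numbered 2 the log2 changes were 3.55 and 2.95. Injured IP stood above injured input by 0.56 on the log2 scale (adjusted p = 0.00509), whereas naive IP and naive input differed by -0.06. The difference between the fractions' injury changes was 0.62 (SE 0.20, adjusted p = 0.945), and it was called with the replicate block within fraction (0.63, adjusted p = 0.00131).

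Plxna4, a plexin that serves as a receptor for Sema6a and, with neuropilin 1, for Sema3a, also rose in both fractions. The gene lies at chr6:32144543-32588192 on the minus strand. In IP it stood at 307, 338 and 321 CPM in naive libraries and at 736, 686 and 730 CPM in injured ones, a 2.23-fold rise (log2 1.16, SE 0.08, adjusted p = 5.9e-07). In input it stood at 264, 298 and 280 CPM and at 507, 567 and 614 CPM, with a log2 change of 1.00 (SE 0.08, adjusted p = 3.55e-06). Each injured library exceeded every naive one by a wide margin. Per kilobase of exon, Plxna4 was at 22.8 CPM in naive IP and 50.9 CPM in injured IP, where of all members only Plxnc1, at 86.5 CPM, and Slit1, at 52.6 CPM, were higher. No other class A plexin was called as higher without the block. Plxna2, the other known receptor of Sema6a, had log2 changes of -0.17 (adjusted p = 0.0788) in IP and -0.28 (adjusted p = 0.00791) in input. Without the naive input library numbered 3 the input change was -0.18 (adjusted p = 0.0981), and with the replicate block Plxna2 was also called in IP (adjusted p = 0.0015). Plxna1 and Plxna3 had log2 changes of 0.09 and 0.22 in IP, with adjusted p = 0.606 and 0.26, and with the block Plxna3 was called (adjusted p = 0.00682).

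**Figure D1:**
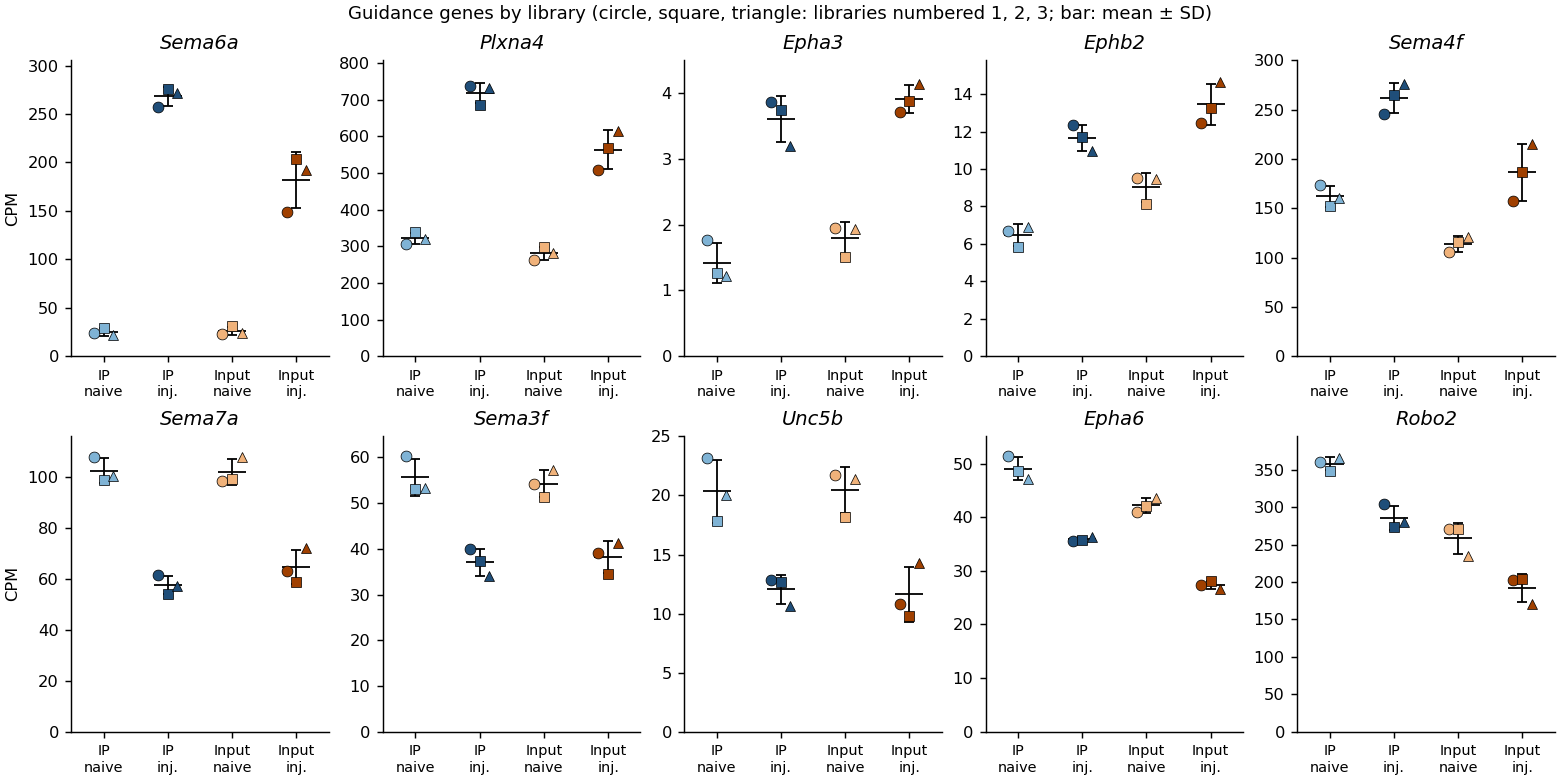
CPM of 10 guidance genes in each of the 12 libraries, with the mean and SD of each group of 3. The upper row holds genes that rose after crush in both fractions (Sema6a from 21.4 to 29.0 CPM in naive IP to 257 to 276 CPM in injured IP), and the lower row genes that fell in both (Sema7a from 98.9 to 108 CPM to 54.3 to 61.6 CPM in IP).

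Both Eph receptors called as higher in IP without the block rose in both fractions. Epha3, a class A Eph receptor that binds A-type ephrins, was low, with 1.78, 1.27 and 1.22 CPM in naive IP and 3.87, 3.74 and 3.21 CPM in injured IP, which are 43 to 57 and 128 to 150 reads. The groups did not overlap, and the log2 change was 1.34 (SE 0.18, adjusted p = 0.000197). In input it was 1.12 (SE 0.18, adjusted p = 0.000931), from 1.95, 1.51 and 1.93 CPM to 3.72, 3.88 and 4.14 CPM. Ephb2, a receptor of B-type ephrins, stood at 6.67, 5.81 and 6.90 CPM in naive IP and at 12.3, 11.7 and 10.97 CPM in injured IP. All injured libraries were above all naive ones, and the log2 change was 0.85 (SE 0.11, adjusted p = 0.000151). In input Ephb2 changed by 0.58 (SE 0.11, adjusted p = 0.00316), from 9.51, 8.12 and 9.44 CPM to 12.5, 13.3 and 14.6 CPM. Ephb2 was also called lower in naive IP than in naive input. The A-type ephrins, ligands of Epha3, gave no call in either fraction in the unblocked fit, and in the blocked fit Efna2 was called higher and Efna3 lower in IP. Efna5, a known high-affinity ligand of Epha3, changed by -0.18 in IP (adjusted p = 0.426) and by -0.28 in input (adjusted p = 0.223), and with the block it was called lower in input (adjusted p = 0.0106).

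Further membrane-bound semaphorins rose in both fractions. Sema4f, a class 4 semaphorin, was the most abundant riser of this family in naive ganglia, at 173, 152 and 161 CPM in naive IP and 245, 265 and 276 CPM in injured IP. In input it went from 105, 116 and 120 CPM to 157, 186 and 215 CPM. The groups were apart in both fractions, and the log2 changes were close, at 0.69 (SE 0.10, adjusted p = 0.00042) in IP and 0.71 (SE 0.10, adjusted p = 0.000509) in input. Sema4a, a semaphorin best known from immune cells, stood at 5.23, 5.12 and 4.94 CPM in naive IP and at 9.11, 9.35 and 10.2 CPM in injured IP. Its log2 change in IP was 0.91 (SE 0.14, adjusted p = 0.000553), with no overlap. In naive input it stood at 10.2, 9.42 and 10.9 CPM, and it was called lower in naive IP than there. In input the Sema4a libraries overlapped, and the change of 0.45 (adjusted p = 0.0398) was called in 3 of 12 fits that each left out 1 library, with adjusted p of 0.0537 to 0.135 in the others. The calls were lost without any of the naive IP libraries, the injured IP libraries 2 and 3, the naive input libraries 1 and 2, or the injured input libraries 2 and 3. Sema6c and Sema6d, transmembrane relatives of Sema6a, did not pass the test in either fraction and had log2 changes of 0.19 and 0.17 in IP. With the replicate block Sema6d was called there (adjusted p = 0.00134).

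Among the secreted semaphorins, Sema3c rose and Sema3f fell. Sema3c, a ligand of neuropilins, stood at 21.6, 22.7 and 21.3 CPM in naive IP and at 45.1, 34.3 and 32.1 CPM in injured IP, with no overlap and the highest value in the injured library numbered 1. The log2 changes were 0.77 (SE 0.16, adjusted p = 0.00462) in IP and 0.62 (SE 0.16, adjusted p = 0.0188) in input. The input call was lost without the injured libraries 1 or 2 or the naive library 1, with adjusted p of 0.0684 to 0.075. Sema3f, which acts mainly through neuropilin 2, stood at 60.3, 53.2 and 53.3 CPM in naive IP and at 39.9, 37.3 and 34.0 CPM in injured IP. In input it went from 54.2, 51.3 and 57.1 CPM to 39.0, 34.5 and 41.3 CPM. Every injured library was below every naive one, and the log2 changes were -0.58 (SE 0.09, adjusted p = 0.000584) and -0.50 (SE 0.09, adjusted p = 0.00233). Sema3a, the best known repellent of sensory axons, was close to the floor of detection, with 3 to 11 reads per IP library and 5 to 16 per input library. Its log2 change in IP was -0.35 (SE 0.57, adjusted p = 0.736), so that a change of moderate size was not detectable at this depth.

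The neuropilins, co-receptors of the class 3 semaphorins, did not pass the test in either fraction. Nrp1 stood at 125, 126 and 131 CPM in naive IP and at 129, 111 and 119 CPM in injured IP. These groups overlapped, and the log2 change was -0.09 (SE 0.08, adjusted p = 0.522). In input it was also -0.09 (SE 0.08, adjusted p = 0.54). Nrp2 changed by 0.02 in IP and by -0.03 in input.

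No share over all genes is given for calls in both fractions. The members that fell in both fractions were 3 semaphorins and 3 receptors. Sensory neuron markers fell beside them: 7 of 15 were called lower and 1 higher in IP (median log2 change -0.30), and 9 lower and 1 higher in input (median -0.35). Their summed level was 24149 to 25026 CPM in naive and 22869 to 23876 CPM in injured IP, and 20813 to 21283 CPM and 17841 to 20592 CPM in input, with no overlap. Their part in the falls of guidance genes was not tested. Sema7a, a semaphorin anchored in the membrane by a lipid and known as a ligand of integrins and of Plxnc1, stood at 108, 98.9 and 100.3 CPM in naive IP and at 61.6, 54.3 and 57.1 CPM in injured IP. In input it went from 98.6, 99.3 and 108 CPM to 63.1, 58.9 and 72.0 CPM. The states did not overlap in either fraction, and the log2 changes were -0.83 (SE 0.09, adjusted p = 1.95e-05) and -0.66 (SE 0.09, adjusted p = 0.000214). Unc5b, a receptor through which netrins repel, stood at 23.2, 17.9 and 20.1 CPM in naive IP and at 12.8, 12.7 and 10.7 CPM in injured IP, with log2 changes of -0.76 (SE 0.15, adjusted p = 0.00262) in IP and -0.81 (SE 0.15, adjusted p = 0.00216) in input. Sema5b, a transmembrane semaphorin with thrombospondin repeats, stood at 12.4, 9.999 and 10.03 CPM in naive IP and at 7.75, 5.81 and 6.91 CPM in injured IP. It changed by -0.66 (SE 0.14, adjusted p = 0.00418) in IP and by -0.71 (SE 0.14, adjusted p = 0.00389) in input. The naive and injured libraries of both genes were separate in each fraction.

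Epha6, an Eph receptor abundant in neurons, stood at 51.3, 48.7 and 47.2 CPM in naive IP and at 35.7, 35.7 and 36.3 CPM in injured IP. In input it went from 40.9, 42.1 and 43.6 CPM to 27.3, 28.1 and 26.6 CPM. The replicates were tight and the groups apart, with log2 changes of -0.45 (SE 0.07, adjusted p = 0.000345) and -0.63 (SE 0.07, adjusted p = 3.96e-05). Robo2, the Slit receptor with the highest level here, stood at 361, 348 and 365 CPM in naive IP and at 304, 274 and 280 CPM in injured IP. Its log2 changes were -0.33 (adjusted p = 0.0158) in IP and -0.42 (adjusted p = 0.00391) in input, without overlap. The IP call of Robo2 was lost without the naive IP libraries 1 or 3 or the injured IP libraries 2 or 3, with adjusted p of 0.0546 to 0.0713, and was kept with the replicate block (adjusted p = 1.69e-07). In bulk RNA of this kind, fewer cells of a type and less RNA per cell cannot be told apart, which holds for these falls and for those of the neuron markers given above.

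**Figure D2:**
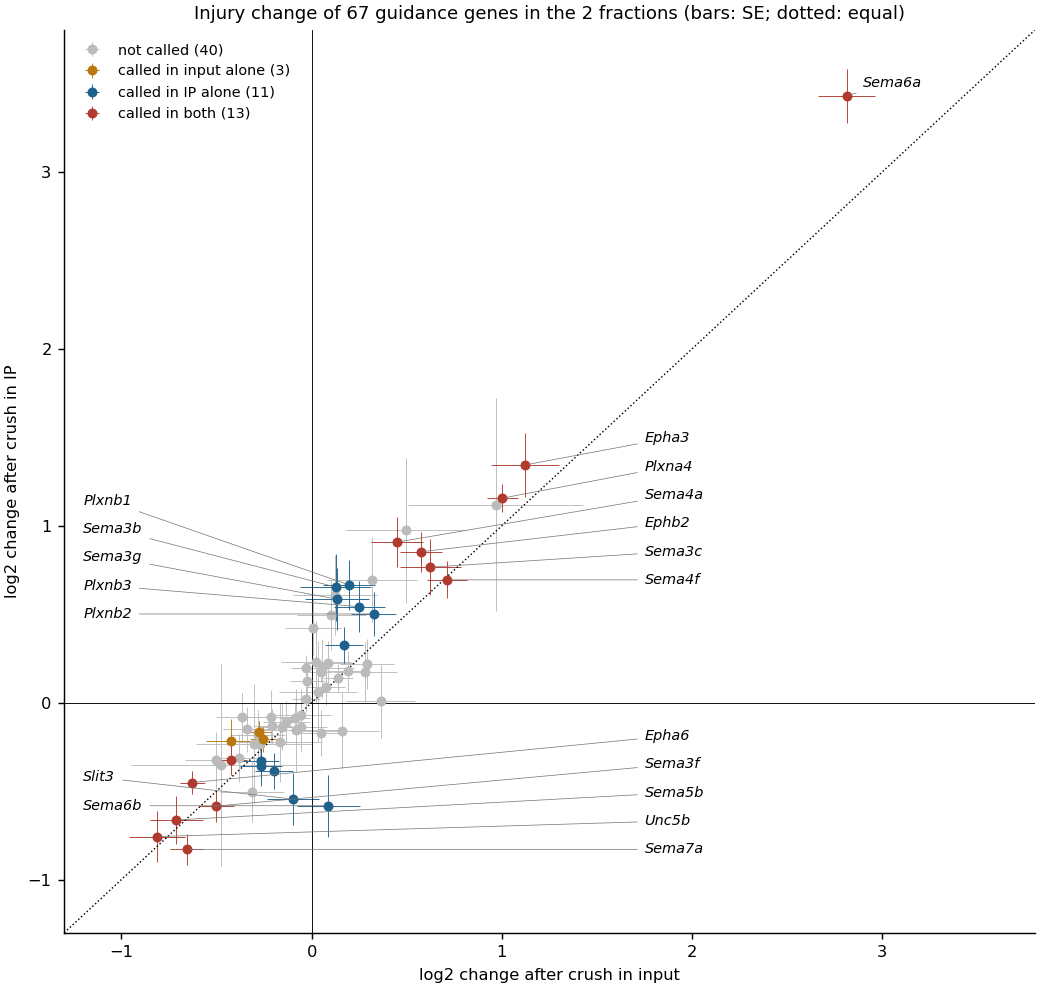
Log2 change after crush of the 67 guidance genes in IP (vertical axis) against input (horizontal axis), with SE bars and a dotted line where the changes are equal. The 13 genes called in both fractions lie in the upper right and lower left, with Sema6a at 3.43 and 2.81 far from the rest; the counts in the key are from the fit without a replicate block.

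A further 11 genes were called in IP and not in input by the unblocked fit. A call in only 1 fraction does not show a difference between fractions. The interaction, which tests that difference, called 0 of the 67 (0.0635% of all genes) in the unblocked fit, with 5 at an unadjusted p under 0.05. DESeq2 and limma-voom, also run without a block, called 0 as well. With the replicate block within fraction the interaction called 5, where 1.79% of all genes were called. Plxnb1, Sema3b, Sema3g and Sema6a rose more in IP than in input, and Sema6b fell in IP. With the same block Plxnb1, Plxnb2, Plxnb3 and Sema3b were also called as higher in input, and Efnb2, Plxnd1 and Slit2 as lower.

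The 3 class B plexins rose in IP. Plxnb1 stood at 15.6, 12.2 and 15.8 CPM in naive IP and at 21.1, 21.6 and 26.6 CPM in injured IP (log2 0.67, SE 0.14, adjusted p = 0.00521). Plxnb2 stood at 35.2, 30.5 and 34.6 CPM and at 43.3, 45.8 and 52.9 CPM (log2 0.50, SE 0.12, adjusted p = 0.0115). Plxnb3, at 5.86, 7.95 and 6.82 CPM and 8.67, 11.1 and 10.3 CPM, changed by 0.54 (SE 0.14, adjusted p = 0.0186). For each the injured IP libraries lay above the naive ones, whereas the input libraries overlapped, with log2 changes of 0.20, 0.33 and 0.25 and adjusted p = 0.402, 0.0885 and 0.252. The Plxnb2 call was lost without the naive IP library 2 or the injured IP library 3 (adjusted p = 0.0501 and 0.0611). That of Plxnb3 was lost without the naive IP libraries 1 or 3 or the injured IP libraries 2 or 3 (adjusted p 0.0639 to 0.091).

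Sema3b and Sema3g, secreted semaphorins, followed the same pattern. Sema3b stood at 73.5, 50.8 and 72.8 CPM in naive IP and at 115, 81.4 and 113 CPM in injured IP (log2 0.65, SE 0.19, adjusted p = 0.0302). Sema3g stood at 18.4, 11.7 and 14.1 CPM and at 26.3, 17.0 and 22.9 CPM (log2 0.58, SE 0.17, adjusted p = 0.0347). The Sema3g groups overlapped, those of Sema3b did not, and in both genes the library numbered 2 was the lowest of its state. The Sema3b call was lost without the naive IP libraries 2 or 3 or the injured IP libraries 1 or 3 (adjusted p 0.051 to 0.107), and the Sema3g call without these or without the naive input library 3 (adjusted p 0.0523 to 0.122). In the blocked fit their adjusted p-values were 3.96e-13 and 5.34e-08. The pairing in that fit was taken from these same data, so these p-values may be too small. Sema4c, a ligand of Plxnb2, changed by 0.33 in IP (adjusted p = 0.0403), and its call was lost without the naive IP libraries 2 or 3 or without any injured IP or naive input library (adjusted p 0.0528 to 0.146).

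The same genes were lower in IP than in input, a comparison that shares the naive IP libraries. Of the 13 genes called higher after injury in IP, 8 were called lower in naive IP than in naive input. Low values in the naive IP libraries favour both calls, and no matching share over all genes is given, so this count is a description. Ephb2, Sema4a and Sema4c were among these 8. In naive ganglia the log2 ratio of IP to input was -1.60 for Sema3b, -1.49 for Sema3g, -2.32 for Plxnb3, -1.26 for Plxnb1 and -1.05 for Plxnb2, with SEs of 0.12 to 0.19 and adjusted p of 3.61e-07 to 3.77e-05. Markers of other cell types moved in IP in the same direction. The summed level of 12 satellite glia markers was 772 to 1267 CPM in naive IP and 1072 to 1548 CPM in injured IP, and 1 of the 12 was called higher. For 12 myelinating Schwann cell markers it was 829 to 1211 CPM and 919 to 1335 CPM, with 0 called by edgeR, and for 12 fibroblast and perineurium markers 227 to 438 CPM and 343 to 663 CPM, with 2 called. For 12 macrophage markers it was 23.4 to 47.9 CPM and 37.7 to 112 CPM, with 4 called, and for 13 endothelium and pericyte markers 113 to 145 CPM and 121 to 151 CPM, with 0 called. The satellite glia, Schwann cell and fibroblast sums were highest in the IP libraries numbered 2, in which Sema3b and Sema3g were lowest and Plxnb3 was highest. Plxnb1 and Plxnb2 were lowest in the naive IP library 2 and highest in the injured IP library 3. The macrophage sum was highest in library 2 of naive and library 3 of injured IP, and the endothelial sum in library 3 of both. The part of other cell types in these changes was not tested.

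**Figure D3:**
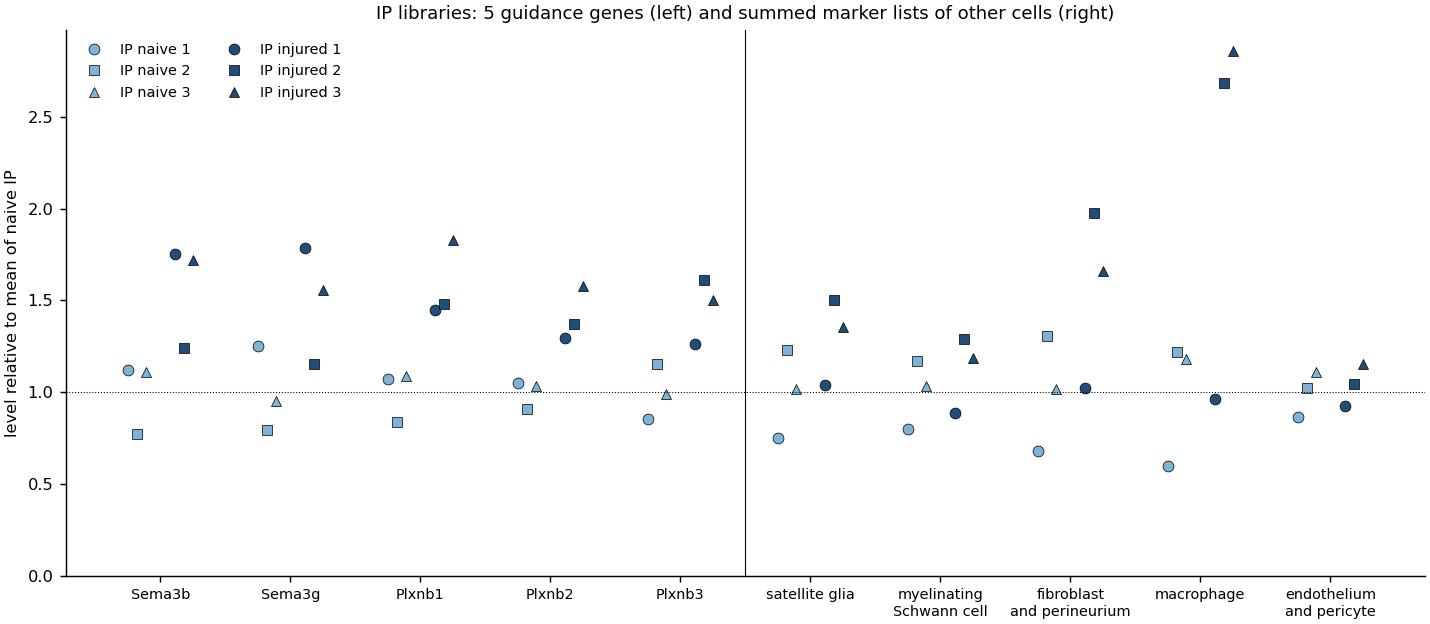
Levels in the 6 IP libraries relative to the mean of naive IP (dotted line at 1), for 5 guidance genes that rose in IP and for the summed markers of 5 other cell types. In the libraries numbered 2 (squares) Sema3b and Sema3g are lowest and Plxnb3 is highest, as are the satellite glia, Schwann cell and fibroblast sums, while in injured IP the macrophage and endothelial sums are highest in library 3 (triangles).

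The 5 genes called lower in IP and not in input were Sema6b, Slit3, Slit2, Plxnd1 and Efnb2. Sema6b, a transmembrane semaphorin, stood at 7.20, 6.59 and 6.08 CPM in naive IP and at 3.82, 4.09 and 5.34 CPM in injured IP, with no overlap (log2 -0.58, SE 0.17, adjusted p = 0.0335), whereas its input libraries overlapped. The call was lost without any of the naive IP libraries or the injured IP libraries 1 or 2 (adjusted p 0.0553 to 0.117). Slit3, a secreted Robo ligand, stood at 6.85, 5.20 and 6.48 CPM and at 4.26, 4.63 and 3.81 CPM (log2 -0.55, SE 0.15, adjusted p = 0.0203), and its call was lost without the naive IP libraries 1 or 3 or the injured IP library 3 (adjusted p 0.0741 to 0.0902). Slit2, Plxnd1 (the receptor of Sema3e) and Efnb2 (a transmembrane ephrin) had smaller log2 changes of -0.38, -0.36 and -0.33. Their adjusted p-values were 0.0181, 0.0383 and 0.0311, and each call was lost in 3 to 5 fits that left out 1 library, among them those without the naive IP library 1 (adjusted p = 0.0924, 0.168 and 0.0726). With the replicate block all 5 were called in IP.

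In input, Plxna2, Robo1 and Sema3e were called lower and were not called in IP, and all 3 were called in IP with the replicate block. Robo1, a Slit receptor, had a log2 change of -0.25 in input (adjusted p = 0.0286) and -0.21 in IP (adjusted p = 0.0591). Sema3e had -0.42 in input (adjusted p = 0.044) and -0.22 in IP (adjusted p = 0.277). The input call of Robo1 was lost without any naive input library or the injured input libraries 1 or 2 (adjusted p 0.0607 to 0.164). That of Sema3e was lost without 8 of the 12 libraries: all naive input libraries, the injured input libraries 1 and 3, the naive IP libraries 1 and 3, and the injured IP library 3 (adjusted p 0.0581 to 0.141).

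The other 40 genes were called in neither injury comparison without the block. They included Plxnc1, the receptor of Sema7a and the most abundant member per kilobase of exon, at 102 CPM per kilobase in naive IP. Plxnc1 stood at 934, 774 and 841 CPM in naive IP and at 797, 662 and 708 CPM in injured IP, with overlap and a log2 change of -0.23 (SE 0.10, adjusted p = 0.146). The libraries numbered 1 were the highest and those numbered 2 the lowest in each state, and with the replicate block Plxnc1 was called in both fractions (adjusted p = 1.57e-05 in IP). Slit1, second per kilobase at 45.2 CPM, stood at 290, 238 and 275 CPM and at 342, 273 and 319 CPM, with a log2 change of 0.22 (adjusted p = 0.34; 0.00112 with the block). In the blocked fit 9 further genes were called higher in IP (Efna2, Ephb3, Ephb4, Ntn1, Plxna3, Robo4, Sema5a, Sema6d and Slit1) and 8 lower (Efna3, Epha10, Epha7, Plxna2, Plxnc1, Robo1, Sema3e and Sema4b). Dcc, the netrin receptor for attraction, was low, at 1.503 to 1.81 CPM in naive IP and 1.15 to 1.72 CPM in injured IP, and its log2 change was -0.16 (adjusted p = 0.714).

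The comparison of IP with input sets RNA bound to neuronal ribosomes against RNA of the whole ganglion. In naive ganglia 38 of the 67 were called, 12 higher and 26 lower in IP, where 41.1% of all genes were called, 15.1% higher and 26% lower. In injured ganglia 43 were called, 16 higher and 27 lower, against 45.9% of all genes, 21.4% higher and 24.6% lower. The median log2 ratio was -0.34 in naive and -0.20 in injured ganglia over the guidance genes, against -0.01 and 0.04 over all genes. Scaled by library size alone, the split was 7 higher and 31 lower in naive and 9 and 31 in injured ganglia, with the median of all genes at -0.11 in both. These comparisons share libraries with the injury comparisons, so the values stand side by side and are not independent. The 10 largest called ratios were all negative in each state.

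Robo4, the Robo receptor known from blood vessels, was the lowest in IP in naive ganglia. It stood at 0.436, 1.07 and 1.11 CPM in naive IP against 6.61, 6.55 and 6.56 CPM in naive input (log2 -2.90, SE 0.38, adjusted p = 7.69e-05). The injured ratio was -2.42 (SE 0.35, adjusted p = 0.000136), and the IP library numbered 1 was the lowest in each state. Efnb3, a transmembrane ephrin, stood at 0.530, 0.607 and 0.682 CPM in naive IP against 5.02, 2.87 and 4.51 CPM in naive input, with log2 ratios of -2.76 (SE 0.25, adjusted p = 3.17e-06) and -2.73 (SE 0.24, adjusted p = 3.48e-06). Fractions did not overlap for either gene.

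Of the 4 netrins, 3 were called lower in IP in naive and 4 in injured ganglia. Ntn1, the founding attractant of the family, stood at 4.70, 6.56 and 5.37 CPM in naive IP against 29.5, 31.5 and 36.6 CPM in naive input, with log2 ratios of -2.55 (SE 0.16, adjusted p = 3.73e-07) in naive and -2.13 (SE 0.15, adjusted p = 1.19e-06) in injured ganglia. Ntn4, a netrin of basement membranes, had ratios of -1.46 (SE 0.21, adjusted p = 0.000118) and -1.78 (SE 0.21, adjusted p = 2.56e-05). Ntn3 was called in injured ganglia (-0.45, adjusted p = 0.044), and this call was lost in 8 of 12 fits that left out 1 library (adjusted p 0.0501 to 0.161): those that left out any 1 of the 3 injured IP libraries, the naive IP library 1 or 2, the injured input library 2 or 3, or the naive input library 2. Ntn5 had -1.11 and -1.47 (adjusted p = 0.000539 and 4.85e-05), but 23.4% of its exon bases overlap Sec1 on the opposite strand, and how overlapping genes were counted is not given. The netrin receptors went otherwise: Unc5d was higher in IP in both states (0.56 and 0.54, adjusted p = 0.0115 and 0.012), Unc5c in injured ganglia (0.32, adjusted p = 0.0112), and Dcc, Unc5a and Unc5b gave no call in either state. The Unc5d calls were lost without the naive IP library 3 (adjusted p = 0.0534) and without the injured IP library 1 (adjusted p = 0.0646).

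Among the receptors lower in IP were Epha2 and Ephb4, an Eph receptor of epithelia and one of veins. Their log2 ratios in naive ganglia were -2.21 (SE 0.21, adjusted p = 4.74e-06) and -2.02 (SE 0.19, adjusted p = 5.63e-06), and in injured ganglia -2.01 and -1.63. Plxnb3 had ratios of -2.32 (SE 0.14, adjusted p = 3.61e-07) and -2.03 (SE 0.14, adjusted p = 8.73e-07). Slit3 was lower by -1.15 in naive and -1.60 in injured ganglia (adjusted p = 3.6e-05 and 4.17e-06). Efna4 was among the lowest in injured ganglia (-1.40, SE 0.47, adjusted p = 0.0254), on 10 to 13 reads per IP library against 21 to 33 per input library. Its call was lost without any of the injured IP libraries or the injured input library 2 (adjusted p 0.0508 to 0.0864), and 10.5% of its exon bases overlap another gene. In naive IP Efna4 had 9, 5 and 0 reads, where the floor of 3 reads in the last library is 0.0826 CPM.

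For scale, markers of the other cell types were lower in IP than in input by more than most guidance genes. The median log2 ratio in naive ganglia was -3.06 over the 12 Schwann cell markers, -2.63 over the 12 satellite glia markers, -3.01 over the 12 fibroblast markers and -2.50 over the 13 endothelial and pericyte markers. It was 0.37 over the 15 neuron markers, of which 9 were called higher and 0 lower. The part of each cell type in the level of a guidance gene in input was not tested.

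No share over all genes is given for calls in both states. Genes higher in IP in both states numbered 12: Efna1, Efna5, Epha6, Plxna2, Plxnc1, Robo1, Robo2, Sema3e, Sema4d, Sema4f, Slit1 and Unc5d. Plxnc1 led them, with log2 ratios of 0.88 (SE 0.11, adjusted p = 2.7e-05) in naive and 0.92 (SE 0.11, adjusted p = 2.07e-05) in injured ganglia. Sema4d, a ligand of class B plexins, had 0.58 and 0.61, and Robo2 had 0.47 and 0.57. Slit1, the Slit with the highest level here, had 0.53 and 0.46, whereas Slit2 had -0.47 and -0.66 and Slit3 the values given above. The naive calls of Efna1, Efna5, Epha6, Plxna2, Robo1 and Sema3e were each lost without the naive IP library 1 and without the naive input library 1 (adjusted p of 0.0531 to 0.179 in the fits that lost them). The injured call of Efna1 was lost in 8 of 12 such fits, and that of Slit1 without the injured IP libraries 1 or 3 or the injured input libraries 1 or 2 (adjusted p 0.0556 to 0.0776). Plxna4 and Sema6a were called higher in IP in injured and not in naive ganglia, with log2 ratios of 0.35 and 0.56 in injured ones, and their interaction was not called in the unblocked fit.

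**Figure D4:**
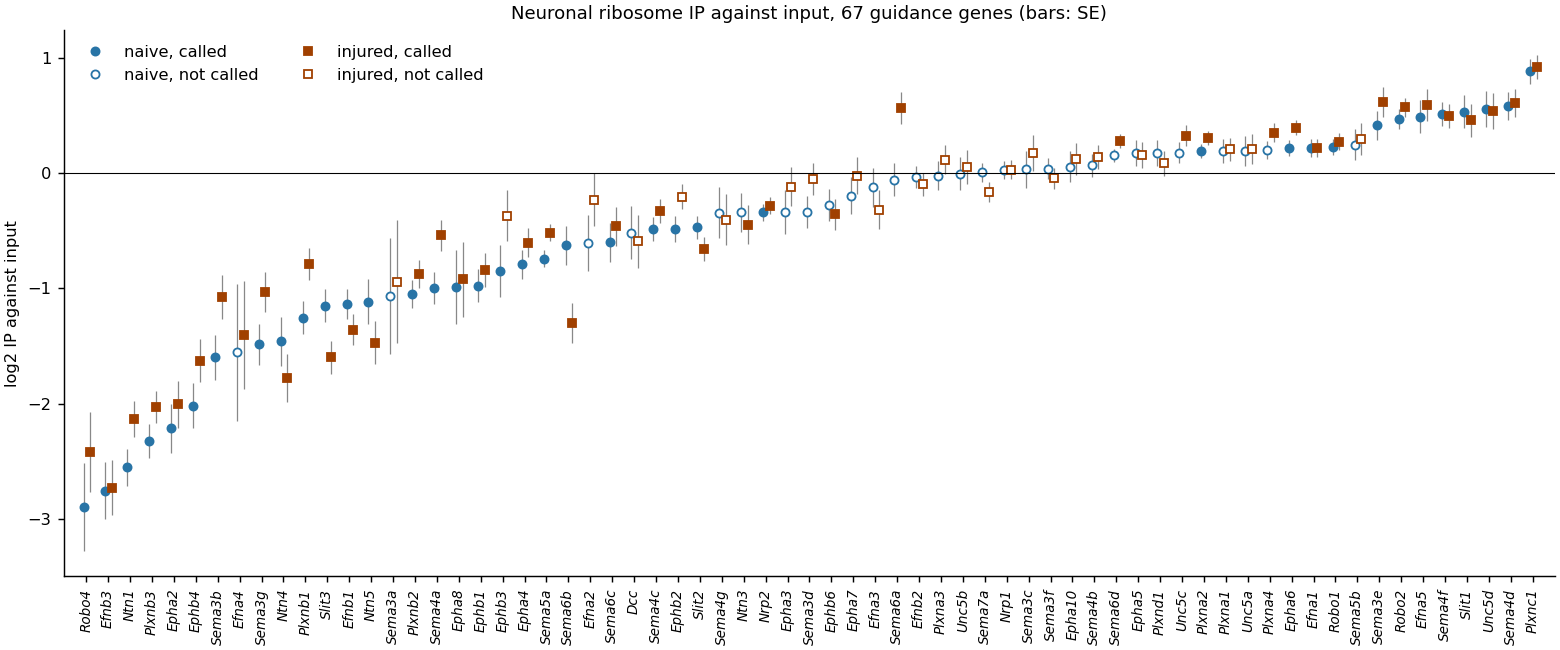
Log2 ratio of IP to input for the 67 guidance genes in naive (circles) and injured (squares) ganglia, ordered by the naive ratio, with SE bars and filled symbols for calls. The range runs from Robo4 at -2.90 to Plxnc1 at 0.88 in naive ganglia, and Sema6a moves from -0.06 to 0.56.

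Other genes of the pathway were described by counts. Of 49 tested guidance and adhesion molecules outside the families above, 10 rose and 14 fell in IP and 8 rose and 13 fell in input. These are 49.0% and 42.9% of the list, against 18.7% and 16% of all genes. The list was chosen with earlier results of these data known, so its share is a description and no excess is read from it. Flrt3, an adhesion molecule that binds Unc5 and Robo receptors, rose most, from a mean of 24.7 to 212 CPM in IP (log2 3.10, SE 0.21, adjusted p = 7.33e-07). Draxin, a secreted netrin and Dcc ligand, rose from 2.89 to 14.2 CPM (log2 2.29, adjusted p = 6.89e-07). In input these genes rose by 2.86 and 2.07, and Gfra1, the co-receptor for GDNF, by 1.31. Among those that fell in IP were Omg, a myelin glycoprotein that inhibits axon growth (log2 -0.88, adjusted p = 0.000537), Dscaml1 (-0.72), Ntng1 (-0.61) and Flrt1 (-0.57). In input the lowest were Cntn6, a contactin (-1.01), Omg (-0.93), Dscaml1 (-0.72) and Rtn4rl1, a Nogo receptor homologue (-0.62).

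Of 74 effector genes that act below the receptors, 15 rose and 6 fell in IP, and 9 rose and 9 fell in input. These are 28.4% and 24.3% of the list against the same shares of all genes. This list was also chosen with earlier results known, and its shares are a description. Myo10, an unconventional myosin of filopodia that carries Dcc, rose from a mean of 38.9 to 176 CPM in IP (log2 2.18, SE 0.10, adjusted p = 2.55e-08). Rnd1, a small GTPase that binds plexins, rose from 1.61 to 6.35 CPM (log2 1.98, adjusted p = 1.41e-05), and by 1.54 in input (adjusted p = 0.000202).

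A separate deposited table gave read counts for short genomic intervals in or beyond 3' untranslated regions (3' UTRs). It held 219 intervals assigned to 68 of the guidance genes, and 44 genes had at least 100 reads in them. The intervals were counted in the same libraries, so they describe where reads lay and do not replicate the gene counts. For Sema6a, 7 intervals with 858 reads had log2 ratios of injured to naive of 2.86 in IP and 2.65 in input. Those of Plxna4 had 1.19 and 0.92, those of Sema4f 0.72 and 0.72, and that of Sema7a -0.99 and -0.79. The injured and naive libraries of these 4 genes did not overlap in either fraction. Of the 16 genes with at least 100 interval reads that were called in IP, 15 had the same sign. The exception was Plxnb2, whose single interval held 146 reads (-0.46). A shared sign is not a shared size: Plxnb1 and Sema3c had 0.03 and 0.20 in IP, against 0.67 and 0.77 in gene counts. Plxnb3 had 0.93 against 0.54, and the libraries of all 3 overlapped. In input 11 of 11 had the same sign. Between IP and input, 24 of 26 called genes shared it in naive ganglia (not Robo1 and Sema4d) and 30 of 31 in injured ones (not Nrp2).

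**Figure D5:**
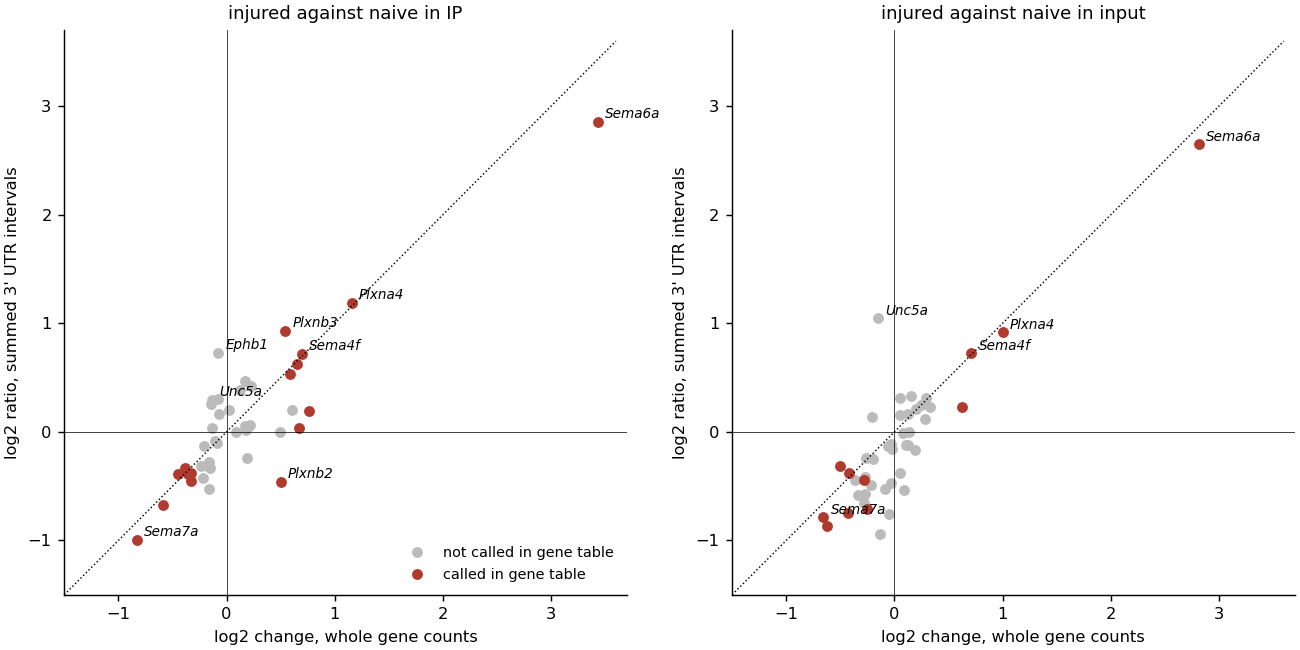
Log2 ratio of injured to naive over the summed 3' UTR intervals of 44 guidance genes (vertical axis) against the log2 change of the gene's counts (horizontal axis), in IP and input. Sema6a, Plxna4, Sema4f and Sema7a lie near the dotted line of equality or, for Sema6a in IP, below it, and Plxnb2 has the opposite sign in IP.

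The promoters of all members with a window were read for motifs of factors active after axon injury. Windows of 250 bases before to 50 after the start of a RefSeq transcript (GRCm38.p6) were read for 59 members, among them 10 of the 13 called in both fractions; Plxna4, Sema3f and Sema6a were not read. On both strands, the AP-1 motif TGANTCA lay in the windows of 3 members (5.08%), Sema4c, Sema4d and Sema6b, against 6.69% of the tested genes with a window. The STAT motif TTCNNNGAA lay in those of Efna3, Epha3 and Sema3e (5.08% against 8.41%), and TGACG, the core of the cyclic AMP response element, in 10 (16.9% against 33%). A match is a run of letters and not a binding site. The windows of 2 genes that rose, Epha3 (chr16:63864126-63864425, minus strand) and Sema4f (chr6:82939720-82940019, minus strand), and of 2 that fell, Sema7a (chr9:57939862-57940161, plus strand) and Unc5b (chr10:60831532-60831831, minus strand), are given 5' to 3' along the transcript. Capitals mark the STAT motif in Epha3 and TGACG in Sema7a, and Sema4f and Unc5b held no match to any of the 3 motifs.
Epha3: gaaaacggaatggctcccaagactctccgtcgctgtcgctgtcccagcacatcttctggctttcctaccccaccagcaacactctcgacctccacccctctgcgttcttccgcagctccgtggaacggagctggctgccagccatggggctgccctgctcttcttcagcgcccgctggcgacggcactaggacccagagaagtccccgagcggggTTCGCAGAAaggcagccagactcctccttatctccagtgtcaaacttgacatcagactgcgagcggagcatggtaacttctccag
Sema4f: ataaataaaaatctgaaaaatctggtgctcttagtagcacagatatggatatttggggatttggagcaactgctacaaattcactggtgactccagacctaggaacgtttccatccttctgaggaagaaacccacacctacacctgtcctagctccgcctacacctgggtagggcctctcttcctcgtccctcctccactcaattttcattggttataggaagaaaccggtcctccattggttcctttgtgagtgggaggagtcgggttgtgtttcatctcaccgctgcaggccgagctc
Sema7a: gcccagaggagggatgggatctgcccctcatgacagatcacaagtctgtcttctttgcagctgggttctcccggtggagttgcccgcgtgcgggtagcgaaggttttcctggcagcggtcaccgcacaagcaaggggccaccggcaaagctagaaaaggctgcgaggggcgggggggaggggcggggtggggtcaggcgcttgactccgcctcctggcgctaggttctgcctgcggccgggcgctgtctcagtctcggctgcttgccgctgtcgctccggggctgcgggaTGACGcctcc
Unc5b: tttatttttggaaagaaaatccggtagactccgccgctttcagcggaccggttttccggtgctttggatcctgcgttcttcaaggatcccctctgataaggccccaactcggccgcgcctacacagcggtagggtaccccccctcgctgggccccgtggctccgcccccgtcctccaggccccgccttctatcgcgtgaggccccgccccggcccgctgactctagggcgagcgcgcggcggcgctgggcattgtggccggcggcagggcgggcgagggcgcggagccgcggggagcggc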

How the data were processed

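RNA was sequenced from 12 libraries in 4 groups of 3. Library preparation, per the labels' protocols, used RNeasy columns and a strand-marking kit that depletes ribosomal RNA. Tools named without a role, per the submitters' processing notes, were STAR, HTSeq and bcl2fastq 2.17, on GRCm38 and mm10. The authors deposited raw read counts per gene symbol and raw read counts per short interval. The use of strand, and the counting of overlapping genes, are not given in the sources used here. The design text speaks of 4 mice, and 3 replicates per group were analysed here.

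Of the gene table's entries, 27 with names turned into dates (0.191% to 0.214% of counts) were left out, and 24033 remained. Counts were tested with edgeR 4.0.16 (R 4.3.3, robust quasi-likelihood F test, 4 group means, 8 residual degrees of freedom) on all 12 libraries. The test followed filterByExpr and used TMM factors of 0.943 to 0.977 in IP and 1.02 to 1.06 in input. It was also run on simulated counts drawn without replicate pairing or outlying libraries, which does not cover the spread between these libraries. The 5 comparisons were injured against naive in each fraction, IP against input in each state, and their interaction. Replicates differed by more than sampling noise (chi-square per degree of freedom 4.61 to 52.4). Same-numbered injured and naive libraries deviated together within a fraction (correlations of 0.191 to 0.597) in every pair. Differently numbered ones of the same fraction had correlations of -0.467 to 0.206, a range that overlaps. Across fractions the correlations of same-numbered libraries were -0.025 to 0.23, above 0.1 in some pairs and not in others. The numbers were thus taken, from these same data, to pair libraries within a fraction. The block within fraction leaves fewer than 8 residual degrees of freedom. Because the pairing came from these same data, p-values of the blocked fit may be too small. Alternatives were library size or DESeq2 factors as scaling, DESeq2 1.42.0, limma-voom (limma 3.58.1), other filters, only the libraries compared, a replicate block, and left-out libraries. Gene positions and promoter windows came from RefSeq, and gene strands, exon lengths and exon overlaps from GENCODE vM21.

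The members and gene lists were chosen with earlier results of these data known. Full statistics are given for members called after injury with an absolute log2 change of at least 0.5, for the 10 largest called ratios of IP to input in each state, and for the most abundant member of a family without such a gene, and smaller changes are named with less detail. Of the other pathway genes, the 4 largest called changes per direction are named, and Atf3 serves as a label check. The log2 ratios of intervals are of mean counts scaled like the gene counts, with no test. Read counts carry no molecular identifiers, so floors cover counting error only.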

Additional observations from a re-analysis of the deposited data

Results flagged for a closer look

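The injury change differed between IP and input for 5 guidance genes in the fit with the replicate number as a block within fraction, and for none of them in the fit without it. The pairing behind that block was taken from these same data, so its p-values may be too small. The difference, IP minus input on the log2 scale, was 0.625 for Sema6a (SE 0.0974, adjusted p = 0.00131 by edgeR). It was 0.529 for Sema3b (adjusted p = 1.4e-06), 0.48 for Plxnb1 (adjusted p = 0.009), 0.456 for Sema3g (adjusted p = 0.00472) and -0.661 for Sema6b (adjusted p = 0.0366). Sema6a rose in both fractions, from 21.4 to 29.0 CPM to 257 to 276 CPM in IP. Beside Sema3b, Sema3g and Plxnb1, the mean summed markers of satellite glia, Schwann cells, fibroblasts and macrophages were higher in injured than naive IP, with overlapping ranges. In input the macrophage sum went from 229 to 287 CPM to 427 to 557 CPM. The fibroblast sum there went from 2315 to 2792 CPM to 3148 to 3693 CPM, and the satellite glia and Schwann cell ranges overlapped. The interaction called none of these markers in the unblocked fit, which called none of the 5 guidance genes either. The blocked result of the markers is not given here, and their part in the difference was not tested.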

How the results depend on the processing

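The 49 named values kept their sign in all 1106 combinations of value and alternative, and 1065 also kept their side of the threshold. They were named because they were called with large changes, so this stability was partly set by the choice. It does not extend to all smaller calls. Those of Sema4a in input and Efna1 between naive fractions were each lost in 9 of 12 fits that left out 1 library. The 41 losses of a call fell on 8 values: Plxnb2, Plxnb3, Sema3b, Sema3g, Sema6b and Slit3 in IP, Sema3c in input, and Efna4 between injured fractions. The count of guidance genes called after injury in IP went from 24 to 41 with the replicate block within fraction, and ranged from 14 to 28 when 1 library was left out. In input it went from 16 to 34 with that block and to 10 with only the libraries compared, and ranged from 12 to 17 over left-out libraries. The interaction count went from 0 to 1 with a replicate block over all 12 libraries and to 5 with the block within fraction. That block gives no comparison between fractions, because it holds each fraction's libraries apart. The cause of these shifts was not tested. Depth limits Sema3a, Efna4, Epha1 and Robo3, which had at most 33 reads in any library.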
